A study of Mus musculus with 19 samples.

Results

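MHC class II genes and March1 were 8 of the 24537 genes counted in RNA from mouse hepatocytes, the metabolic cells that make up most of the liver. They were H2-Aa, H2-Ab1, H2-Eb1, Cd74, H2-DMa, H2-DMb1, Ciita and March1, each taken by its symbol in the table. They were selected on measured values, the difference of their levels between young and old mice in these same libraries. Their age differences are therefore a description. Counts of members passing an age threshold are printed beside the share of all genes that passed, in every set of libraries, and are no test of the members. All 8 passed the filter on low counts.

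The study compared 10 libraries from mice aged 5 months with 9 from mice aged 24 months. All mice were male, wild type and of the C57BL/6J strain, a single inbred line, so strain, sex and genotype were shared by both ages. Hepatocytes were isolated by a liver perfusion in 2 steps, and polyadenylated RNA was sequenced. Mice were culled on 2 days that lay 23 days apart, with 5 young and 5 old on the first day and 5 young and 4 old on the second. All mice of an age share 1 date of birth in the labels, so the mice of the second day were also 23 days older. Libraries are named here by their number, which the ages do not share. The labels give each library a number of its own and do not otherwise say that each is a separate mouse, so p-values measure the spread between these libraries.

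MHC class II molecules are pairs of an alpha and a beta chain that carry peptides from engulfed material to the cell surface, where CD4+ T cells read them. In the liver they are found mainly on macrophages (Kupffer cells), dendritic cells, B cells and sinusoidal endothelial cells rather than on hepatocytes. The invariant chain holds the peptide groove closed during transport, H2-DM swaps its remnant for a peptide, CIITA switches the genes on, and the ubiquitin ligase MARCH1 marks class II molecules for removal from the surface.

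Libraries held 17381439 to 20287628 counts over genes. Hepatocyte markers were abundant in every library, with a summed level of 82990 to 189100 CPM (counts scaled to a library total of 1000000) over 8 genes. The summed level of 14 Kupffer cell and macrophage markers was 105.5 to 526.6 CPM at 5 months and 72.5 to 3871 CPM at 24 months, so markers of cells other than hepatocytes were detected at both ages. Old library 1187 stood apart, with the highest value of 30.4% of the 12269 genes tested and with the 3871 CPM of macrophage markers. Young libraries 1184, 1186 and 1188 had hepatocyte marker sums of 82990 to 89010 CPM, below 130600 to 141900 CPM in the other 7 young libraries. In bulk RNA such as this, a change in the number of cells of a type and a change in RNA per cell cannot be told apart.

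Class II genes are switched on from a short promoter module in which the X, X2 and Y boxes lie at set distances. The promoters of 3 class II members and March1 are shown to mark where exact letters of these boxes lie near the start. No window shown held exact matches to all 3 boxes. Only exact letters were searched, so a missing match does not show that a box is absent. RefSeq windows (GRCm38.p6) of 250 bases before to 50 after the start were matched for 5 of the 7 members searched, which leaves H2-Ab1 and Ciita. Cd74 was not searched. Capitals mark the Y box core TGATTGG, the X box AACTGATGATG and the X2 box TGACGTCA, each searched on both strands, and no match overlapped another. The letters searched were read from the H2-Eb1 window (X) and the H2-Aa window (X2 and Y), so their presence there is no finding. The windows lie at chr17:34287774-34288073 on the minus strand (H2-Aa), chr17:34305617-34305916 on the plus strand (H2-Eb1), chr17:34152941-34153240 on the plus strand (H2-DMb1) and chr8:66386051-66386350 on the plus strand (March1, named Marchf1 there).
H2-Aa: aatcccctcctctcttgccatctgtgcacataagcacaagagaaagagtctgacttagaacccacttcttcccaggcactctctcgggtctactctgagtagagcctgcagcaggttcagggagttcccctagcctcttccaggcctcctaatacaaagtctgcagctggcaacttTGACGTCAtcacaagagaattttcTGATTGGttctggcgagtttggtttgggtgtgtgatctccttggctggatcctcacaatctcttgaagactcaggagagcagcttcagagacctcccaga
H2-Eb1: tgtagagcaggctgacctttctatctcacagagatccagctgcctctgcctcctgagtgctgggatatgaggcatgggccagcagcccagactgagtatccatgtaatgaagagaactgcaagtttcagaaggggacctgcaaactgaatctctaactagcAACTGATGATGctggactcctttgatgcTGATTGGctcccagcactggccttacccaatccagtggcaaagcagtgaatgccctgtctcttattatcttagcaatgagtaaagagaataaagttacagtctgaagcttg
H2-DMb1: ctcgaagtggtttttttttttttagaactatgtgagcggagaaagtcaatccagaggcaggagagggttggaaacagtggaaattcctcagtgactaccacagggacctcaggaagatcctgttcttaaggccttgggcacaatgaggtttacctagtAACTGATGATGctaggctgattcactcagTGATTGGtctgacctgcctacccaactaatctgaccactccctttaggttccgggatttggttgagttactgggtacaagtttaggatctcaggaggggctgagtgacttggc
March1: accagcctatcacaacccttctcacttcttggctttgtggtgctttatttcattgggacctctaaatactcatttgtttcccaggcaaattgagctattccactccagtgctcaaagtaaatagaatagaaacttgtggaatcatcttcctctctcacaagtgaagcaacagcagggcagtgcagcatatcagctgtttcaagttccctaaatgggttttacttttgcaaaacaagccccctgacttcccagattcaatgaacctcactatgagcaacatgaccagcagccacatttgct

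Positions are counted from the RefSeq start, which for H2-Aa lies 52 bases from that of the row counted. The Y core stood at -50 in H2-Aa, at -61 in H2-Eb1 and at -63 in H2-DMb1. It was found in 2568 of 32851 promoter windows of the same length (7.82%). The X box letters stood at -89 in H2-Eb1 and at -92 in H2-DMb1, and they were found in only 12 windows (0.0365%), which belong to 10 genes. H2-Aa held the X2 letters at -74, which 1.79% of windows hold. None of the 3 motifs was found in the March1 window shown or in the H2-DMa window nearest the start of the counted row. For H2-DMa RefSeq lists 2 windows, and matches are given here only for the nearest. RefSeq lists 3 windows for March1, and the one shown belongs to the transcript that was counted. A match is a description of the letters and not a measured binding site.

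H2-Aa (mm10 chromosome 17, 34282751 to 34287771, minus strand) encodes the alpha chain of the I-A molecule. At 5 months its level ran from 4.70 to 16.4 CPM with a median of 6.98 CPM, and at 24 months from 4.32 to 490 CPM with a median of 21.8 CPM. Library 1187 was far above all others, old library 1183 was the lowest of all 19, and 5 of 9 old libraries were above every young one. The mean was 8.68 ± 3.92 CPM at 5 months (SD, n = 10) and 70.6 ± 158 CPM at 24 months (SD, n = 9), or 18.1 ± 8.55 CPM without library 1187 (SD, n = 8). The log2 fold change, 24 over 5 months with cull day in the model, was 2.46 (SE 0.722) for H2-Aa, and 1.03 (SE 0.304) without library 1187.

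H2-Ab1 (chromosome 17, 34263227 to 34269418, plus strand) encodes the beta chain that pairs with H2-Aa. Its level was 6.17 to 18.1 CPM at 5 months (median 9.25) and 4.41 to 533 CPM at 24 months (median 28.6). The order of libraries was close to that of H2-Aa, again with 1187 highest, 1183 lowest and 5 of 9 old libraries above every young one. The log2 fold change of H2-Ab1 was 2.41 (SE 0.697), and 1.01 (SE 0.292) without library 1187.

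H2-Eb1 (chromosome 17, 34305867 to 34316674, plus strand) encodes the beta chain of the I-E molecule. C57BL/6 mice are known to lack its alpha chain, and the pseudogene row H2-Ea-ps held no count in 18 libraries and 0.5 in library 1187. H2-Eb1 ranged from 3.16 to 12.6 CPM at 5 months (median 5.92) and from 4.10 to 407 CPM at 24 months (median 21.4). Here 7 of 9 old libraries were above every young one, and young library 1186 was the lowest of all. Its log2 fold change was 2.61 (SE 0.731), and 1.24 (SE 0.306) without library 1187. H2-Eb2, a close paralog, held at most 2 counts outside library 1187, where it had 16.5, against 8068 counts of H2-Eb1 there.

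Cd74 (chromosome 18, 60803849 to 60812652, plus strand) encodes the invariant chain. Its row overlaps the microRNA gene Mir5107 and is the only one of the 8 to overlap another gene. It was the most abundant member by length, with a median of 14.9 CPM per kb of transcript at 5 months and 44.0 at 24 months. In CPM it ran from 13.5 to 35.9 at 5 months (median 21.0) and from 10.2 to 1263 at 24 months (median 61.8). Library 1187 was highest, 1183 lowest, and 6 of 9 old libraries were above every young one. Cd74 had a log2 fold change of 2.46 (SE 0.719), and 0.97 (SE 0.268) without library 1187.

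H2-DMa and H2-DMb1 (chromosome 17, 34122832 to 34139101 and 34153191 to 34160229, both plus strand) encode the chains of the peptide editor. H2-DMa ran from 0.630 to 2.07 CPM at 5 months (median 1.34) and from 0.936 to 34.1 CPM at 24 months (median 2.43). H2-DMb1 ran from 0.756 to 2.07 CPM at 5 months (median 1.07) and from 0.661 to 54.1 CPM at 24 months (median 2.73). In both genes 7 of 9 old libraries were above every young one. The log2 fold change of H2-DMa was 1.86 (SE 0.543) and 0.91 (SE 0.266) without library 1187. For H2-DMb1 it was 2.32 (SE 0.650) and 1.08 (SE 0.273) without that library. H2-DMb2, a close paralog whose reads the counting could share with H2-DMb1, held 0.5 to 7.5 counts outside library 1187 and 49 in it, against 1071 for H2-DMb1.

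Ciita (chromosome 16, 10480072 to 10527640, plus strand) encodes the transactivator and was the scarcest member by length. It held 3 to 13.5 counts per young library and 4 to 38 per old library other than 1187, so counting error weighs on each of its values. Its level was 0.158 to 0.741 CPM at 5 months (median 0.407) and 0.220 to 12.2 CPM at 24 months (median 0.909). Library 1187 was again highest, and 6 of 9 old libraries were above every young one. The log2 fold change of Ciita was 2.07 (SE 0.527), and 1.22 (SE 0.344) without library 1187.

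March1 (chromosome 8, 66386301 to 66471637, plus strand) encodes the membrane ubiquitin ligase. At 5 months it ran from 0.208 to 2.97 CPM with a median of 0.691, and at 24 months from 0.275 to 19.03 CPM with a median of 1.83. Young libraries 1184 (2.97 CPM), 1186 (1.81 CPM) and 1188 (1.70 CPM) lay among the old ones, while the other 7 young libraries lay between 0.208 and 1.03 CPM. Only library 1187 was above every young library, which sets March1 apart in description from the 5 to 7 old libraries of each class II gene. Its log2 fold change was 1.60 (SE 0.521), and 0.72 (SE 0.404) without library 1187.

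**Figure D1:**
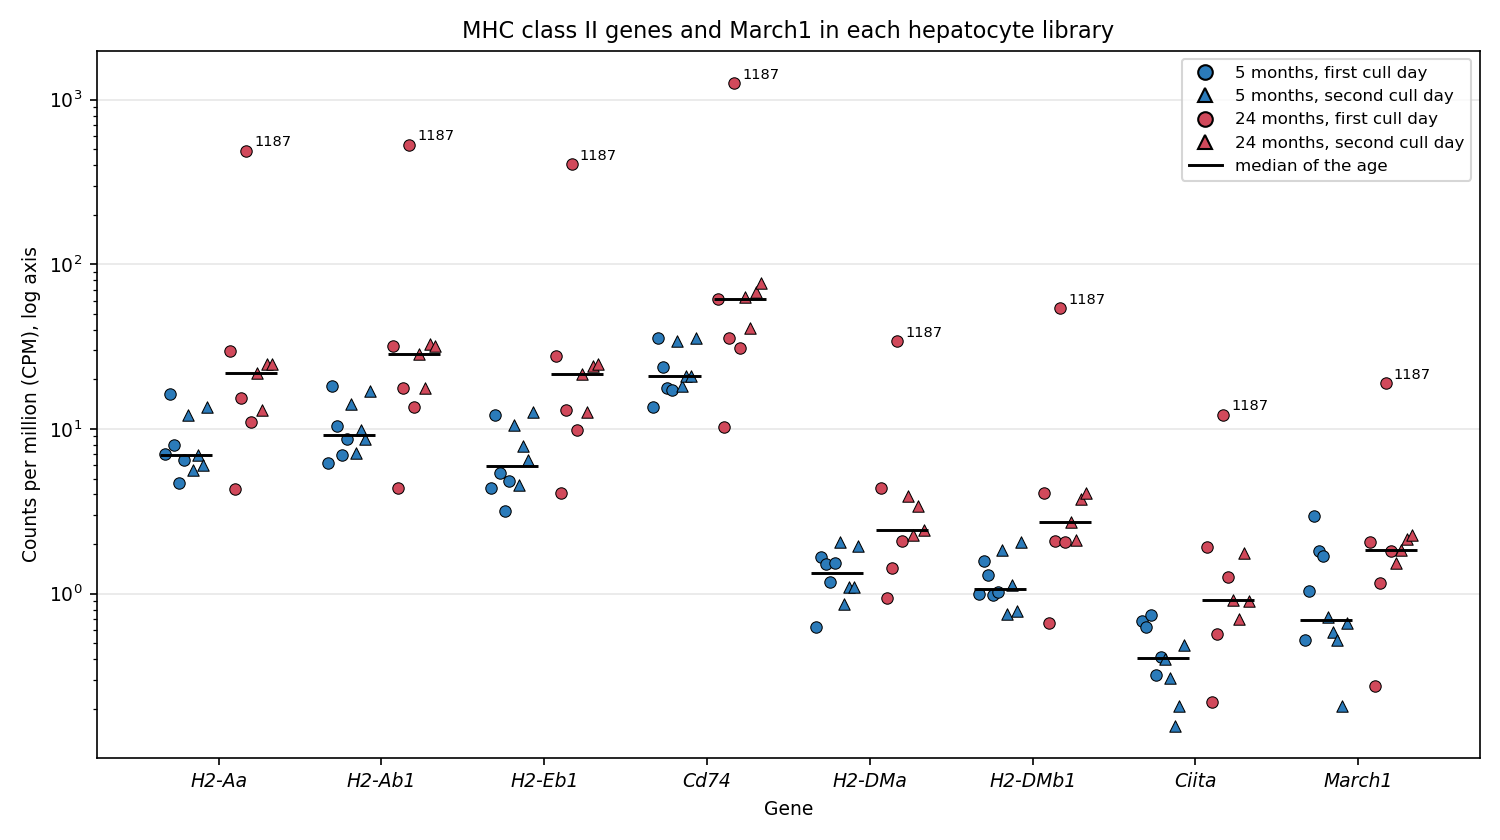
Level of each gene in every library, in CPM on a log axis; blue is 5 months and red 24 months, circles are the first cull day and triangles the second, and lines are medians. Library 1187 lies above all others for all 8 genes, and for March1 several young circles lie among the old libraries.

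Per kb of transcript, the order of medians at 5 months was Cd74 (14.9 CPM per kb), H2-Ab1 (7.80), H2-Aa (6.57), H2-Eb1 (3.56), H2-DMb1 (0.841), H2-DMa (0.812), March1 (0.176) and Ciita (0.0722). At 24 months the order was the same, from 44.0 CPM per kb for Cd74 to 0.465 for March1 and 0.161 for Ciita. At 5 months 4 of the 7 neighbouring pairs had medians closer than the larger SD of the pair, H2-Ab1 and H2-Aa, H2-Aa and H2-Eb1, H2-DMb1 and H2-DMa, and March1 and Ciita. At 24 months all 7 did, since library 1187 widens every SD, and without it the first 3 of those pairs did.

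In the fit over all 19 libraries, all 8 genes were called higher at 24 months at an adjusted p under 0.05 in edgeR, where 30.9% of the 12269 genes tested were called in either direction and 16.3% were called higher. The age contrast chose these genes, so neither this count nor those that follow in subsets of the same libraries say anything further about them. Without library 1187, 7 of 8 were called, beside 24.5% of genes, and March1 was not. DESeq2 gave an adjusted p to 3 of the 8 (H2-DMa, Ciita and March1) and called those 3, beside 33.7% of genes. In limma-voom, which weights each library by its fit, log2 fold changes were smaller, from 0.91 (March1) to 1.39 (H2-Eb1), with 1.23 for H2-Aa, and 7 of 8 were called, beside 32.6% of genes, with March1 not among them. No gene of the 8 had every old library above every young one, with or without library 1187, a pattern seen in 1.30% and 1.31% of tested genes.

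Within the first cull day, log2 fold changes of the 7 class II genes ran from 2.32 (Ciita) to 3.72 (H2-Eb1), each above its value over all libraries, and March1 had 1.41, below its own. Standard errors were 0.868 to 1.16. None of the 8 was called there, beside 3.67% of genes. Within the second day, which lacks library 1187, they ran from 1.05 (H2-DMa) to 1.84 (March1), and all 8 were called, beside 19.3% of genes, again among libraries that served to choose them. March1 thus had the smallest of the 8 values on the first day and the largest on the second. Without young libraries 1184, 1186 and 1188 the value of March1 was 2.08 (SE 0.661), that of H2-Aa 1.88 (SE 0.856), and 2 of 8 genes (Ciita and March1) were called, beside 27.2% of genes. Without those 3 and library 1187, an alternative chosen after seeing the data, March1 had 1.44 (SE 0.351) and H2-Aa 0.90 (SE 0.343), and 7 of 8 were called, beside 28.3% of genes.

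Markers of other liver cells moved with age as well. Of 14 macrophage markers 13 were called higher at 24 months over all libraries, beside 16.3% of genes, and 2 were without library 1187, beside 12.4% of genes. In sets that lack more libraries besides 1187 the count was 13 again, on the second cull day alone (beside 12.2% of genes) and without libraries 1184, 1186, 1188 and 1187 (beside 15.7% of genes). Of 12 stellate cell markers 11 were called higher, and 9 without library 1187. Of 12 sinusoidal endothelial cell markers 9 were called higher, and 7 without it. Only 1 to 4 markers of each other immune cell list passed the filter on low counts. The part of these cells in the age differences of the class II genes and March1 was not tested.

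**Figure D2:**
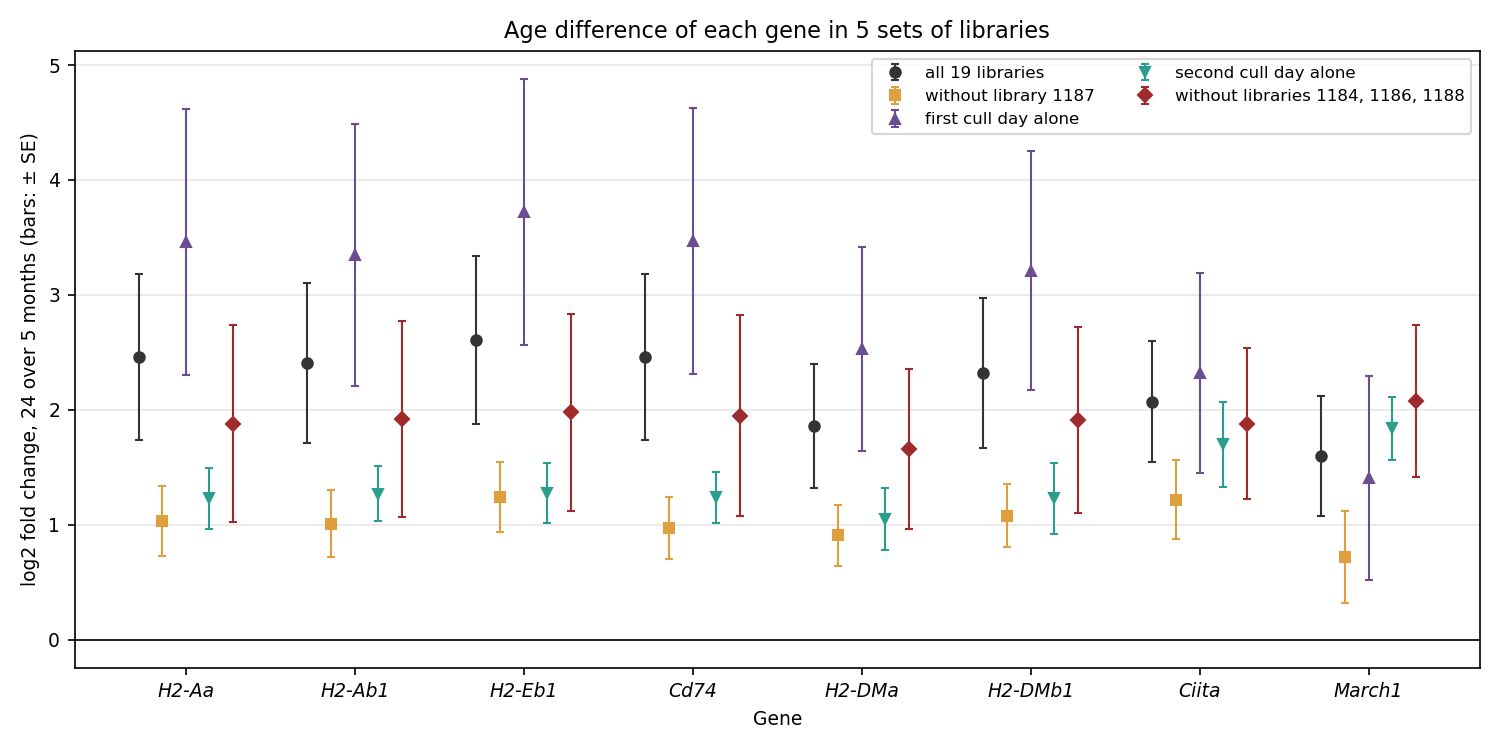
Log2 fold change of each gene, 24 over 5 months, with its standard error, in 5 sets of libraries. All points lie above 0; class II values are 0.91 to 1.24 without library 1187 and 1.05 to 1.70 on the second cull day, while March1 is lowest without library 1187 (0.72) and highest without libraries 1184, 1186 and 1188 (2.08).

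Cull day was not used to choose the genes and could be tested. None of the 8 differed between the days at an adjusted p under 0.05 in edgeR, beside 12.3% of all genes, and 2 (March1 and Ciita) had an unadjusted p under 0.05. March1 had the largest difference, -1.38 on the log2 scale for the second day minus the first (SE 0.530, edgeR adjusted p = 0.0885). Ciita had -1.19 (SE 0.534, edgeR adjusted p = 0.141) and H2-Aa -1.06 (SE 0.721, edgeR adjusted p = 0.331). Without library 1187 the values were -0.55 for March1 and -0.33 for Ciita, and those of the other 6 turned positive, from 0.23 (H2-Aa) to 0.51 (H2-Eb1), again with none called, beside 13.1% of genes. With DESeq2 March1 passed by cull day over all libraries, beside 17.2% of genes. Removing young libraries 1184, 1186 and 1188 together left 0 genes of the whole table called by cull day in edgeR, where 2474 had an unadjusted p under 0.05.

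Whether the age difference itself depended on cull day was tested with an interaction term. None of the 8 passed, and none of the 12269 genes did in edgeR (0% called), where 799 had an unadjusted p under 0.05, 10 passed in DESeq2 (0.0819%) and 349 in limma-voom (2.84%). The difference of age effects, second day minus first, was -2.26 for H2-Aa (SE 1.27, edgeR adjusted p = 0.826), -2.47 for H2-Eb1 (SE 1.26, edgeR adjusted p = 0.791) and 0.40 for March1 (SE 1.06, edgeR adjusted p = 0.970). The error of the March1 value leaves room for a large difference in either direction. With limma-voom the difference was -0.14 for H2-Aa, -0.42 for H2-Eb1 and 2.17 for March1 (SE 0.675, limma-voom adjusted p = 0.0781). DESeq2 gave Cd74 no p-value for this term. In edgeR without library 1187 the class II values lay between 0.07 (H2-Eb1) and 0.88 (Ciita), and March1 had 2.09 (SE 0.663, edgeR adjusted p = 0.433). The sign for March1 turned without young libraries 1184, 1186 and 1188 (-0.63, SE 1.35, edgeR adjusted p = 1.0), and it was 1.06 (SE 0.711) without these and 1187.

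Library 1187 carried most of the old group's class II RNA. It held 77.2% of the CPM of H2-Aa summed over the 9 old libraries, 76.5% of that of Cd74, 62.0% of that of H2-DMa and 59.3% of that of March1. Its level was 16.5 times the next highest for H2-Aa, 16.3 times for H2-Ab1 and for Cd74, 14.6 times for H2-Eb1 and 13.2 times for H2-DMb1. The ratios were smaller for H2-DMa (7.76), March1 (6.42) and Ciita (6.37). This library was picked out as the one with the highest H2-Aa level, so these ratios are a description and no test.

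Markers of several immune cells were high in the same library. The macrophage sum was 3871 CPM against at most 806.7 CPM elsewhere, although Marco and Cd163, both macrophage receptors, were not highest there. The dendritic cell sum was 45.0 CPM against at most 7.93 CPM in the other libraries, and its leading gene Clec10a, a lectin that macrophages can also express, held 330 counts against at most 11.5. Zbtb46, a defining factor of dendritic cells, was not highest there, at 34 counts against up to 44, while Cd209a, Siglech and Itgae were 1.22, 1.65 and 1.41 times the next highest library in CPM. The sum of B cell markers was 31.5 CPM against at most 4.71, with 141.5 counts of Cd79b, a chain of the B cell receptor, against at most 12.5. Cr2 (5 counts against up to 6) was not highest there, and Fcer2a (5.5 against at most 5) and Pax5 (3 against at most 2) were scarce everywhere. Sums for T and NK cells (39.2 CPM, at most 3.68 elsewhere) and for neutrophils and monocytes (29.8 CPM, at most 6.75 elsewhere) were also highest there. Of the latter list, Ly6g (0 counts against up to 1) and Cxcr2 (4 against up to 8) were not highest there. S100a8 was 1.58 times the next highest library in CPM. Kdr, an endothelial marker, was not highest there either (70.3 against up to 71.3 CPM). Endothelial and stellate cell sums were 1.45 and 2.30 times the next highest, while the hepatocyte sum of 133000 CPM ranked 14 of 19. The part of these cells in the level of class II genes in library 1187 was not tested.

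The paired chains H2-Aa and H2-Ab1 kept a similar ratio while H2-Aa ran from 4.32 to 490 CPM. The ratio of H2-Ab1 to H2-Aa, both in CPM per kb, lay between 0.786 and 1.32 in all 19 libraries, with a coefficient of variation of 12.5%. In library 1187 it was 0.974, inside the range of the other libraries. The ratio of Cd74 to H2-Aa lay between 1.45 and 2.84, with 1.95 in library 1187. The ratio of H2-DMa to H2-Aa was lowest of all in library 1187, at 0.0447 against 0.0576 to 0.160 elsewhere.

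Some ratios set young libraries 1184, 1186 and 1188 apart. H2-Eb1 to H2-Ab1 was 0.366, 0.327 and 0.401 in them, below the 0.452 to 0.569 of the other young libraries and the 0.510 to 0.664 of the old ones. H2-Aa to March1 was 9.99, 9.65 and 14.1 in these 3, against 35.7 to 107 in the other young libraries and 22.3 to 95.5 in the old ones. March1 to Ciita, which involves no class II chain, was 5.74, 8.13 and 5.93 in them, against 1.10 to 4.78 in the other young and 1.53 to 3.74 in the old libraries. These libraries therefore held more March1 for their class II level than any other library, while their H2-Aa, at 4.70 to 7.99 CPM, lay within the range of the other young libraries except for 1186, the lowest of the 10. They are 3 of the 5 young libraries of the first cull day, and nothing in the labels examined here distinguishes them from the other 2.

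**Figure D3:**
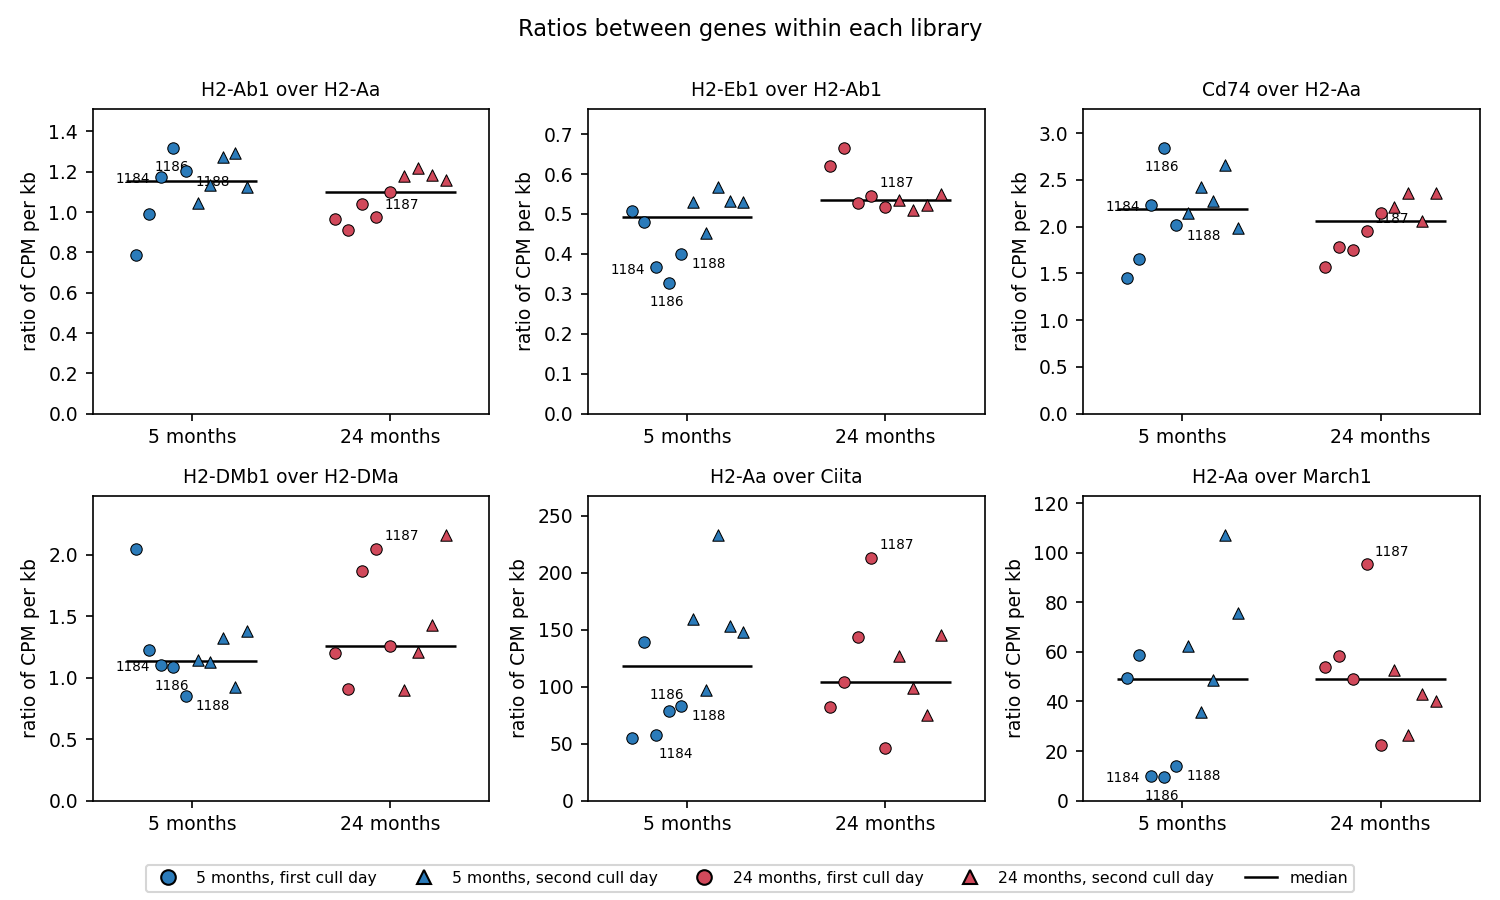
Ratios between genes in CPM per kb within each library, by age, with medians as lines. H2-Ab1 over H2-Aa spans 0.786 to 1.32, while H2-Aa over March1 is 9.65 to 14.1 in young libraries 1184, 1186 and 1188 and at least 22.3 in all others.

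The members were also ranked against each other across libraries, as a description. Over the 19 libraries the 21 pairs of class II genes (Ciita included) had Spearman rho of 0.72 to 0.98 with a median of 0.91, and the 7 pairs with March1 had 0.54 to 0.77 with a median of 0.65. Within the 10 young libraries the medians were 0.75 and 0.27. Within the 8 old libraries other than 1187 they were 0.83 and 0.76. All points share library depth and preparation.

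Class II and March1 levels were set against the summed macrophage markers within each age, on log2(CPM + 0.1), a relation chosen after seeing the data. This gave 16 relations, over which p-values were adjusted. They were repeated with values centred and permuted within each cull day, which held 4 or 5 libraries of an age. Among the 10 young libraries March1 rose with the markers, with Pearson r of 0.84 (permutation p = 0.00233, adjusted p = 0.00466) and Spearman rho of 0.87 (permutation p = 0.00212, adjusted p = 0.0170). Within cull days r was 0.90 for March1 (exact permutation p = 0.00153, adjusted p = 0.00696) and the correlation of ranks 0.95 (exact permutation adjusted p = 0.0200). Without libraries 1184 and 1186, the pair farthest from the median marker level, r was 0.61 and rho 0.74. For H2-Aa no relation was detected in the young libraries, with r of -0.03 (permutation p = 0.937) and rho of -0.03 (permutation p = 0.946). The other class II genes had r between -0.20 (H2-Eb1) and 0.52 (H2-DMa) there, and none passed. Without libraries 1184 and 1186 r rose to 0.38 for H2-Aa, 0.33 for H2-Eb1, 0.49 for Cd74 and 0.79 for H2-DMa, and it was 0.19 for Ciita. By rank the values without that pair were 0.12 for H2-Aa, 0.38 for H2-Eb1, 0.31 for Cd74 and 0.74 for H2-DMa, beside 0.74 for March1. Within cull days r of the class II genes ran from -0.07 (H2-Eb1) to 0.60 (H2-DMa, exact permutation p = 0.0817), and none passed. The difference between the relations of March1 and H2-Aa was not tested.

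Among the 9 old libraries all 8 genes rose with the markers by Pearson r, from 0.91 (Ciita) to 0.97 (H2-Ab1, Cd74 and March1), with exact permutation adjusted p of 0.000352 to 0.00928. The genes were chosen by an age difference that includes library 1187, which also had the highest marker sum. All relations in the old libraries are therefore a description, and their p-values are no independent test. Spearman rho was 0.97 for Cd74 (exact permutation adjusted p = 0.00264), 0.80 for H2-Aa (exact permutation adjusted p = 0.0276) and 0.83 for March1 (exact permutation adjusted p = 0.0189). For Ciita rho was 0.67 and did not pass (exact permutation adjusted p = 0.105). Libraries 1183 and 1187, the lowest and the highest in markers, lay farthest from the median. Without them r was 0.93 for Cd74, 0.75 for H2-Aa, 0.65 for March1, 0.53 for H2-DMa and 0.25 for Ciita. Spearman rho without them was 0.93 for Cd74, 0.57 for H2-Aa, 0.64 for March1, 0.68 for H2-DMa and 0.29 for Ciita. The relation of Ciita thus rested largely on that pair by both measures, and that of H2-DMa fell by Pearson r more than by rank. Within cull days r was 0.94 to 0.98 for the 8 genes (exact permutation adjusted p of 0.00696 to 0.0161), but the correlation of ranks was 0.73 to 0.87 and none passed (exact permutation adjusted p of 0.0668 to 0.115).

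Relative to macrophage markers, H2-Aa was lowest in young libraries 1184, 1186 and 1188. It was 0.0152, 0.0123 and 0.0263 of the marker sum there, below 0.0307 to 0.127 in the other 16 libraries. March1 was 0.00563, 0.00471 and 0.00694 of that sum in the same 3, and 0.00170 to 0.00672 elsewhere, with 0.00492 in library 1187. H2-Aa in library 1187 was 0.127 of the sum, the highest share of all libraries, with 0.107 in young library 1182 next.

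**Figure D4:**
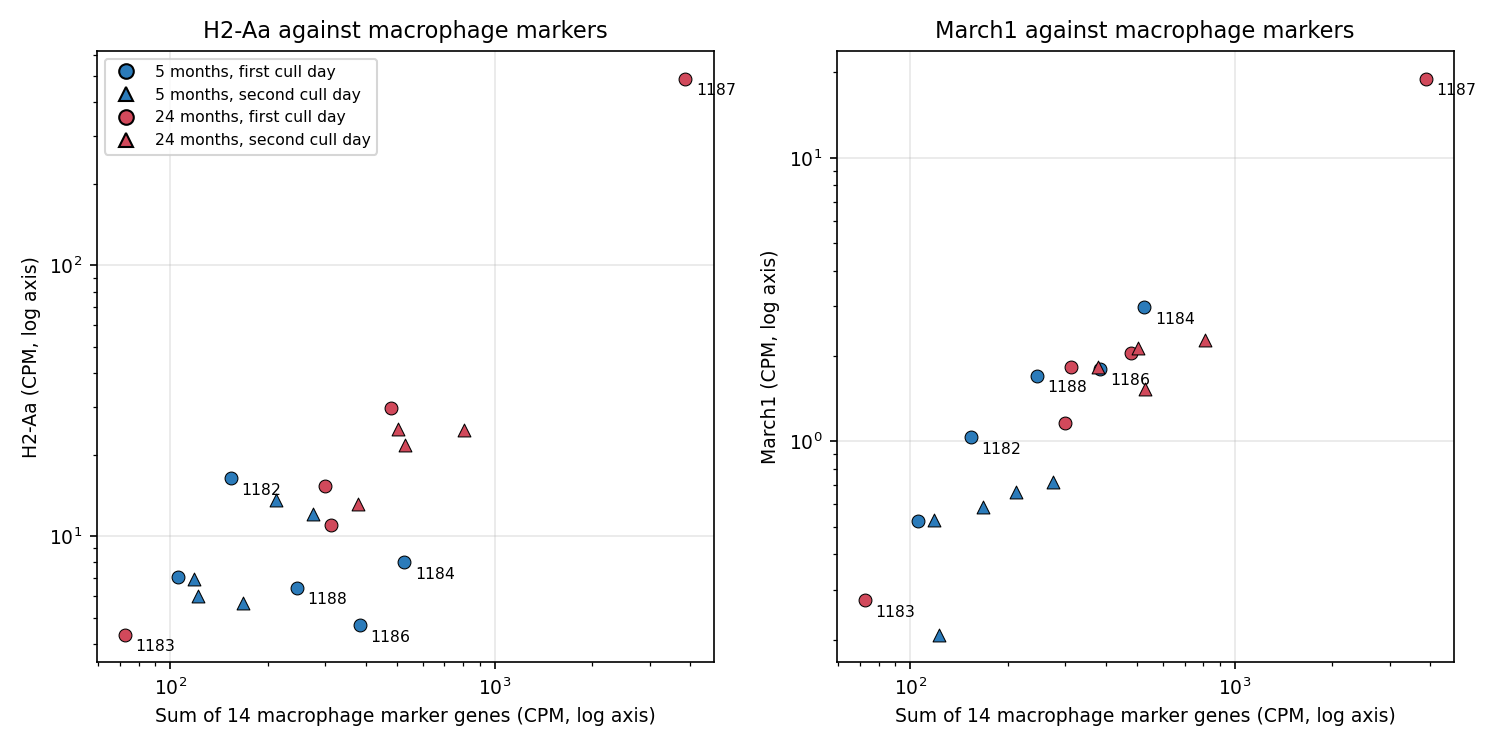
H2-Aa (left) and March1 (right) in each library against the sum of 14 macrophage marker genes, all in CPM on log axes. March1 rises with the markers in young (r 0.84) and old libraries (r 0.97), and H2-Aa has r of -0.03 in the young and 0.95 in the old libraries.

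Outside the 8 members, genes whose pattern was most like that of H2-Aa were ranked by Spearman rho of log2 CPM over the 19 libraries, among 11140 genes averaging 1 CPM or more, whose median rho was -0.05. Among the members, H2-Ab1 (0.98), H2-Eb1 (0.97), Cd74 and H2-DMb1 (both 0.94) had a higher rho than every other gene named here. The first 3 outside the members were Sh3tc1 (0.918), Adgrf5 (0.896) and Tinagl1 (0.891), followed by Elk3, Srgn, Eng, Atp2b4, Aqp1, Tmem204 and Il16. Eng, a TGF-beta co-receptor of blood vessels, is the only 1 of these 10 on a marker list used here, that of sinusoidal endothelial cells. Without library 1187, Prickle1 and Podxl took the places of Tmem204 and Il16, and the other 8 remained. For March1 the first were Wdfy4 (0.967), Nfam1 (0.963), Slfn5 (0.960) and Tifab (0.958), followed by Msn, Nckap1l, Axl, Iqgap1, Ms4a6c and Cybb, the phagocyte oxidase subunit. These 10 were the same without library 1187, and none was among the 10 for H2-Aa.

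The rest of the class II pathway was followed in a list of 32 other genes, of which 31 were in the table and 23 passed the filter. At 24 months 13 were higher and 1 was lower in edgeR at an adjusted p under 0.05, or 14 of 23 beside 30.9% of all genes, with a median log2 fold change of 0.47. Without library 1187, 7 were higher and 1 was lower, or 8 of 23 beside 24.5% of all genes, with a median of 0.32. On the second cull day, which also lacks it, 12 were higher (beside 12.2% of genes), and without libraries 1184, 1186, 1188 and 1187 16 were (beside 15.7%). The median over all genes was at most 0.02 from 0 in each of these fits. Of the proteins that bind class II promoters, Nfyb (0.24), Rfxank (0.29) and Rfx5 (0.33) rose and Creb1 fell by 0.28 on the log2 scale, whereas Rfxap had 0.03, Nfyc -0.08 and Nfya 0.30 and did not pass. The calls of Rfx5 and Creb1 were not stable. Rfx5 no longer passed in 20 of 30 alternatives, 14 of them removals of a single library, among them 1187 (0.32, edgeR adjusted p = 0.0714), and its value over the 19 removals was 0.27 to 0.41. Creb1 no longer passed in 15 of 30, 9 of them such removals, over which its value was -0.32 to -0.23.

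Among the proteases and the reductase that prepare peptides, Ctss (1.70), the cathepsin that trims the invariant chain, rose, as did Ifi30 (1.38), Lgmn (0.77) and Ctsb (0.39). Ctsd (0.23) and Ctsl (0.03) did not pass. Without library 1187 Ctsb (0.27) and Ifi30 (0.66) still passed, and Ctss (0.81, edgeR adjusted p = 0.104) and Lgmn (0.49, edgeR adjusted p = 0.118) did not. Ctss lost its call in no other removal of a single library, whereas Lgmn lost it in 9 of the 19. Of the surface molecules, Cd86 (1.51), a T-cell costimulator, and Cd83 (1.29), known to oppose MARCH1, rose, but neither passed without library 1187 (edgeR adjusted p = 0.103 and 0.0780). Each lost its call in 2 alternatives, that one and the first cull day alone.

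Interferon gamma and interleukin 10 are known inducers of Ciita and March1 respectively. The receptor gene Ifngr1 rose by a log2 fold change of 0.67 and Ifngr2 had 0.20 and did not pass, like the transcription factor gene Irf1 (0.49). Both receptor genes of interleukin 10 rose, Il10ra by 1.42 and Il10rb by 1.11, and Il10rb still passed without library 1187 (0.75, edgeR adjusted p = 0.00359). Il10ra did not (0.71, edgeR adjusted p = 0.0764). Il10 itself held 0 or 1 count in every library but 1187, which had 11. Spi1, the macrophage and B cell factor PU.1, rose by 1.70, and by 0.98 without library 1187. Irf8 had 1.04 (edgeR adjusted p = 0.0532). The macrophage, stellate and endothelial markers counted beside the members moved with age too, and their part in these differences was not tested.

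The class II pathway genes too scarce to test had their highest counts in library 1187. H2-Ob, a brake on H2-DM, held 40.5 counts there and at most 9.5 elsewhere, and its partner H2-Oa held 14 and at most 3. Cd40 had 110 counts there against at most 19.5, and Cd80 had 21 against at most 6.

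Of the 10 other March family genes in the table, 6 passed the filter. Their log2 fold changes by age ran from -0.24 to 0.14 with a median of -0.13, against 1.60 for March1, which was chosen for its age difference. Without library 1187 they ran from -0.21 to 0.16, and March1 had 0.72 and was not called. March6 fell by 0.24 on the log2 scale at 24 months (edgeR adjusted p = 0.0395), a call lost in 18 of 30 alternatives, 11 of them removals of a single library. March8, the closest relative of March1 and also known to act on class II, was at 99.8 ± 15.4 CPM at 5 months (SD, n = 10) and 92.4 ± 15.8 CPM at 24 months (SD, n = 9), and its difference on the log2 scale was -0.16 with SE 0.108 (edgeR adjusted p = 0.282). March4 and March10 were at 0 counts in all libraries.

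**Figure D5:**
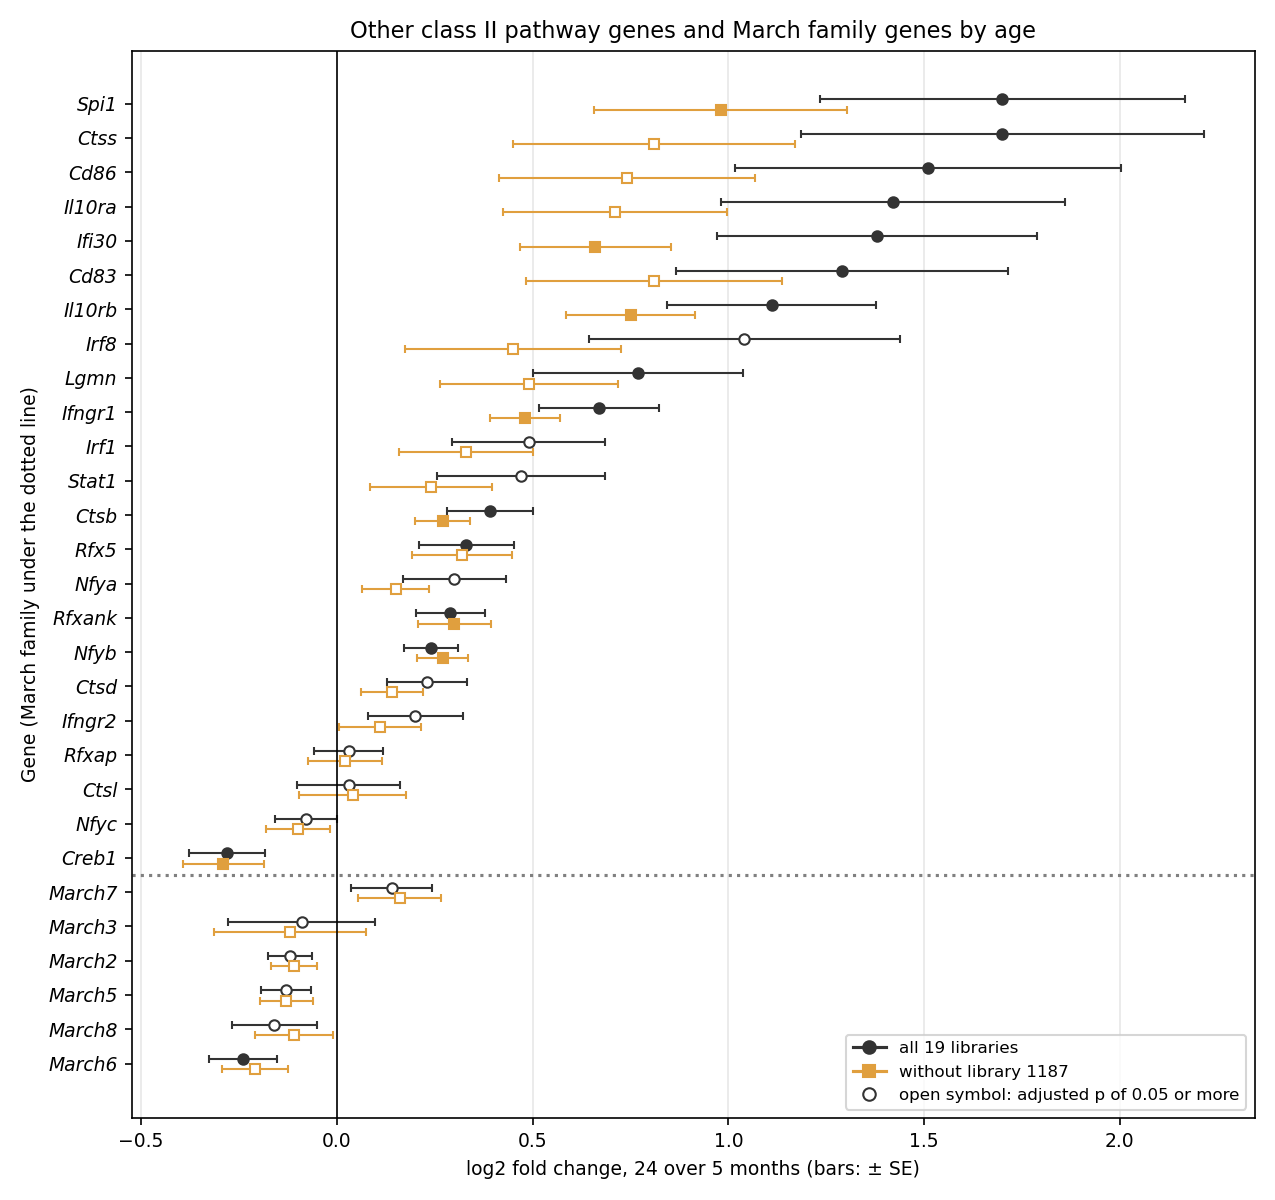
Log2 fold change, 24 over 5 months, with its standard error, for 23 other class II pathway genes and 6 other March family genes (below the dotted line), over all 19 libraries and without library 1187. Filled symbols passed an adjusted p of 0.05; Spi1 and Ctss are highest at 1.70, and the March family genes lie between -0.24 and 0.14.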

How the data were processed

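The authors deposited 1 table with an estimated count per gene for every library, and per the file headers it was made with HOMER's analyzeRepeats.pl on mm10 exons without normalization. STAR and the build GRCm38 (mm10) are named in the submitters' processing notes, with no versions. The kit was stranded per the labels' protocols, and the strand setting of the counting is not given in the sources used here. The deposited counts came in steps of 0.5, and 29.2% were not whole, so they were rounded to whole counts, ties to even, for the count tests that had been planned for plain counts. CPM is the unrounded count scaled to a gene total of 1000000 per library, with no TMM factor, and transcript lengths per kb are those in the table. All 19 columns matched a library, and 0 columns went unused.

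Age was fitted with edgeR 4.0.16 (R 4.3.3), quasi-likelihood test, TMM scaling, filterByExpr by age with a minimum count of 10, cull day as covariate and Benjamini-Hochberg adjustment over 12269 genes at a threshold of 0.05. The cull day term and the interaction came from the same approach. Alternatives were other scaling and filters, DESeq2 1.42.0, limma 3.58.1 (voom weighting samples), a model without cull day, fits within each day and leaving out libraries. The code was tested on simulated data. No 2 libraries of an age were alike: counts of every pair differed by a chi-square per degree of freedom of at least 15.4.

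The members, the gene lists, the marker lists, the motifs and the likeness rule were chosen with earlier results of these data known. Named genes are the 8 members, genes of the pathway and March family lists, and the 10 genes outside the members most like H2-Aa and March1, leaving out immunoglobulin, T-cell receptor and predicted genes. Marker lists covered hepatocytes, macrophages, dendritic cells, B cells, plasma cells, T and NK cells, neutrophils and monocytes, endothelial cells, stellate cells and cholangiocytes. Library 1187 ranked 4 of 19 for the plasma cell list and 3 of 19 for the cholangiocyte list. Correlations with markers used permutation tests (100000 resamples at 5 months, exact at 24 months), and, chosen after seeing the data, exact ones within cull day. Python 3.11.15 with pandas 2.3.3, scipy 1.17.1 and matplotlib 3.10.9 was used for the rest.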

Additional observations from a re-analysis of the deposited data

Results flagged for a closer look

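For each of 23 genes (the 8 members and the 15 list genes called by age) and each age, the gap between the most extreme library and its neighbour was set against the range of the group by Dixon's criterion, which chance exceeds in about 5% of groups. The genes were chosen by an age difference that includes library 1187 and were measured in the same libraries, so their count is no test against that share. Of 46 groups, 19 were past it, and 18 of these were library 1187 as the highest of the 9 old libraries. In it all 8 members stood apart, at 490 CPM for H2-Aa, 533 CPM for H2-Ab1, 407 CPM for H2-Eb1, 1263 CPM for Cd74, 34.1 CPM for H2-DMa, 54.1 CPM for H2-DMb1, 12.2 CPM for Ciita and 19.03 CPM for March1.

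The same library stood apart for 10 of the other genes. Its level was 1482 CPM for Ctsb, 284 CPM for Ctss, 184 CPM for Lgmn and 104 CPM for Ifi30, the genes of peptide preparation. It was 15.7 CPM for Cd86, 5.33 CPM for Cd83, 47.5 CPM for Ifngr1, 38.03 CPM for Spi1, 19.4 CPM for Il10ra and 30.2 CPM for Il10rb. The remaining case was Spi1 in young library 1184, at 5.44 CPM, the highest of the 10 young libraries.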

How the results depend on the processing

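No paired analysis was possible because the ages share no replicate numbers. Of 683 alternative values over 23 single genes, 583 kept their direction and their side of the threshold, 100 kept the direction but no longer passed, and 0 reversed. The 8 members called by age became 3 with DESeq2, which gave the other 5 no adjusted p, 0 on the first cull day alone and 2 without young libraries 1184, 1186 and 1188, and leaving out each library gave 7 to 8. Members called by cull day were 0, and 1 with DESeq2 (March1). Leaving out each library gave 0 to 1, with 1 (March1) without old library 1183. The 14 other pathway genes called by age became 0 on the first cull day alone and ranged from 8 (without library 1187) to 17 when each library was left out. For the March family the count of 1 became 0 with library totals alone, with a filter of 1 CPM in 9 libraries, without the cull day term, on the first cull day alone and, added after seeing the data, without libraries 1184, 1186, 1188 and 1187. It was 2 with limma-voom, and 0 to 1 when each library was left out. Except where fewer libraries or a missing adjusted p account for it, the cause was not tested. Members called by the interaction stayed at 0 in all 27 alternatives run. Ciita had no value under the filter of 1 CPM in 9 libraries, which it did not pass. Depth limits Ciita most, at 3 to 13.5 counts per young library.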
